A study of Mus musculus with 12 samples.

Results

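Ribbon synapse genes of mouse rods, those that build the presynaptic terminal through which a rod signals to bipolar cells, were followed across rod ribosome RNA and whole-retina RNA. The 10 genes (Ctbp2, Bsn, Pclo, Cacna1f, Cacna2d4, Cabp4, Stx3, Cplx4, Slc17a7 and Elfn1) were taken by name from the deposited table of 56748 genes, and each was found there. A rod releases glutamate continuously in the dark from a terminal in which a plate-like ribbon holds synaptic vesicles next to calcium channels. Light lowers the calcium entry and so the release. Several proteins of this terminal differ from those of conventional synapses, where a related gene of the same family does the work.

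The study asked what the loss of the tyrosine phosphatase Shp2 (gene Ptpn11) does to rods. RNA was sequenced from retinas of 2-week-old mice in 12 libraries, 3 for each of 4 groups. Rod libraries hold polyA RNA recovered with HA-tagged ribosomes (TRAP), and retina libraries hold RNA of the same kind of lysate before that step. All mice carried the RiboTag allele and the i75-Rod-Cre transgene. Its rod promoter is meant to limit both the ribosome tag and the deletion to rods. Controls were Shp2fl/+ littermates, which also lose an Shp2 copy in rods and are called Het here. Their sample titles say wt, whereas their genotype label says het. KO mice were Shp2fl/fl. Tissue was perfused with cycloheximide and frozen, and cDNA came from a SMART-Seq V4 kit. Neither the source of the replicates nor a pairing of rod and retina samples is stated, so p-values measure the spread between these samples, which may be technical. By the design of the cross, KO retina still holds the Ptpn11 RNA of other cell types.

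The deposited values are whole numbers that had been multiplied by a factor for each library, so that totals are 16263948 to 16265259 in rods and 14525527 to 14527992 in retina. The reads behind them were estimated at 11890000 to 25280000 per rod library and 9980000 to 19230000 per retina library, with no estimate for Het retina replicate 3. The 10 genes are far above the share that 3 reads give, which was at most 2.5e-05% in rods and 3e-05% in retina and covers counting error only. Values below were scaled with TMM factors over the 12 libraries. Fold changes come from limma on log2 of the scaled value plus 2, a scale that understates changes of genes with low values. A gene was called when its adjusted p was below 0.05 and its log2 fold change beyond 0.5 in either direction. An exact permutation test of 3 libraries against 3 cannot go below p = 0.1, and none was made for single genes.

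Rod and other cell types were checked by markers fixed with the comparisons. All 10 rod markers were higher in Het rods than in Het retina, with a median log2 fold change of 1.89, and the rod transcription factor gene Nrl was higher by 1.83. Summed rod markers took 15.2% to 17.4% of the totals of rod libraries and 5.04% to 6.17% of those of retina libraries. All 8 cone markers were lower in Het rods, though only to a median of -1.08, with the cone arrestin gene Arr3 at -1.20 and the most abundant, the opsin gene Opn1sw, at -1.05. Of 10 bipolar markers 9 were lower (median -5.15), with Grm6 at -5.20 and Trpm1 at -5.30, whereas the most abundant, Prkca, was at 0.04 and not called. All 8 amacrine, 8 ganglion, 6 horizontal and 8 Müller cell markers were lower, with medians of -4.85, -5.10, -3.32 and -4.88. In the same order, the first listed markers Gad1, Rbpms, Lhx1 and Glul stood at -4.85, -4.17, -3.24 and -4.26, the next listed, Pax6, Nefl, Onecut1 and Rlbp1, at -4.72, -5.06, -3.13 and -4.85, and the most abundant amacrine and horizontal genes, Calb2 and Calb1, at -5.52 and -5.11. The 5 microglia markers tested were lower as well (median -4.38), with Cx3cr1 at -4.58 and the most abundant, Csf1r, at -4.77. Onecut1 had a value of 0 in every Het rod library.

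Retina libraries differed widely within each genotype. For KO against Het retina, the Spearman correlation between GC content and log2 fold change across genes was 0.28. Relative to the 10% least GC-rich genes, values of the 10% most GC-rich genes were shifted by -0.24, 0.86 and -0.84 log2 in Het retina and by 0.01, -0.63 and 0.90 in KO retina. Crystallin genes, which mark lens tissue, took between 0.00383% (Het retina replicate 1) and 7.10% (KO retina replicate 3) of the retina totals. Several ribbon synapse genes with GC-rich transcripts were highest in Het retina replicate 2 and KO retina replicate 3, the libraries with the largest positive shifts.

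The 10 genes together took 0.709% to 0.794% of the total of each rod library and 0.413% to 0.526% of each retina library. Per kilobase of the longest protein-coding transcript, Slc17a7 led in Het rods with 16249 ± 1606 (SD, n = 3), followed by Cplx4 with 15525 ± 490, and their ranges overlapped. Stx3 came next with 9262 ± 619, then Cabp4 with 3506 ± 324, Cacna2d4 with 2057 ± 162 and Ctbp2 with 1086 ± 94.9, all as scaled values per kilobase. The lower end of this per-kilobase order held Cacna1f with 658 ± 83.2, Elfn1 with 310 ± 56.3, Pclo with 55.7 ± 3.10 and Bsn with 13.5 ± 0.539. From Cplx4 downward, no neighbours in this order overlapped. Per kilobase, KO rods kept the same order, but there Slc17a7 (21300 ± 2849) lay clear of Cplx4 (13234 ± 651). In Het retina, Stx3 (4820 ± 254 per kilobase) stood ahead of Cplx4 (4528 ± 585) with overlapping ranges, and Pclo (174 ± 16.0) overlapped Elfn1 (183 ± 96.0). The per-kilobase values of Pclo and Bsn rest on full-length transcripts of 20084 and 15938 bases, and shorter forms would have higher values.

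**Figure D1:**
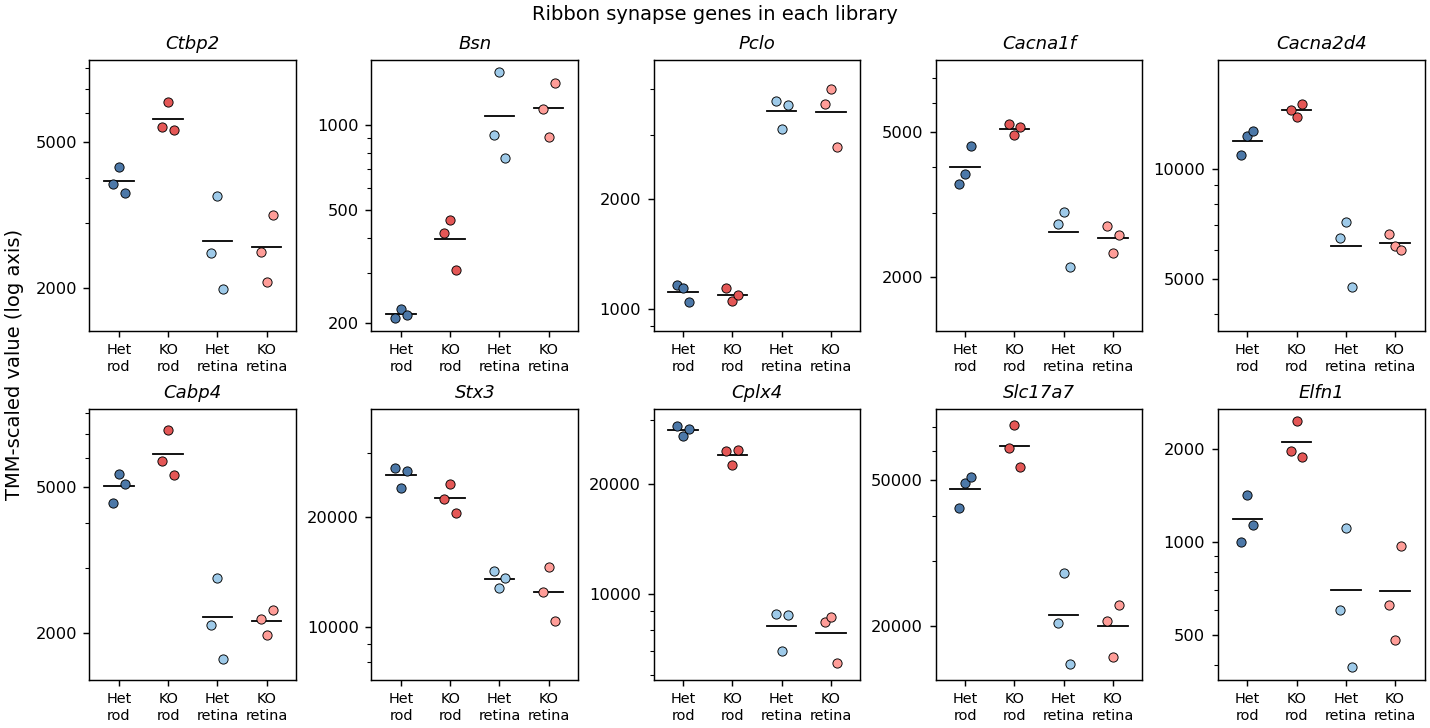
TMM-scaled values (log axis) of the 10 ribbon synapse genes in the 12 libraries, with 1 point per library, 3 per group, and a line at each group mean. Bsn and Pclo are lower in both rod groups than in both retina groups, and the other 8 genes have higher group means in rods.

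Rods were compared with retina within each genotype to ask which of these genes are enriched in RNA on rod ribosomes. In Het mice 8 of the 10 genes were higher in rods, beside 23.0% of the 15889 genes tested, and Bsn and Pclo were lower, beside 35.6% of the genes tested. In KO mice the same 8 were higher (27.4% of the 15955 genes tested) and the same 2 lower (35.1%). The Het and KO comparisons share no library. The median log2 fold change of the 10 genes was 0.91 in Het and 1.19 in KO mice, beside -0.06 and 0.03 over all genes tested. In bulk RNA, a difference in the number of cells of a type cannot be told apart from a difference in RNA per cell, and retina RNA includes the RNA of rods.

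Ctbp2 encodes RIBEYE, the main building material of the ribbon, together with the transcriptional corepressor CtBP2. Its scaled values were 3831, 4289 and 3620 in Het rods, against 2488, 3568 and 1985 in Het retina. They were 5495, 6444 and 5408 in KO rods and 2504, 2077 and 3166 in KO retina. All rod values lay above all retina values of the same genotype, and Het retina was spread widely around its mean of 2680 ± 809 (SD, n = 3). Ctbp2 was higher in rods, with log2 fold changes of 0.58 in Het mice (SE 0.20, adjusted p = 0.032 from limma) and 1.18 in KO mice (SE 0.16, adjusted p = 2.6e-04 from limma). The call in Het mice was narrow. Its adjusted p was 0.077, 0.11 and 0.060 without Het rod replicates 1, 2 and 3, and without Het retina replicate 3 the log2 fold change was 0.48. Over 19 alternatives the adjusted p of Ctbp2 in this comparison ran from 1.7e-05 to 0.56. The table has a single value per gene, so RIBEYE and CtBP2 transcripts cannot be separated.

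Bassoon (Bsn) and piccolo (Pclo) are the giant scaffold proteins of the active zone, and bassoon anchors the ribbon to the membrane. Scaled values of Bsn were 207, 224 and 212 in Het rods, against 925, 1538 and 767 in Het retina. In KO mice they were 415, 461 and 306 in rods and 1138, 907 and 1410 in retina. Every rod value was below every retina value, and the Het rod libraries were tightly grouped. Bsn was lower in rods, with log2 fold changes of -2.25 in Het mice (SE 0.24, adjusted p = 6.1e-05 from limma) and -1.54 in KO mice (SE 0.20, adjusted p = 2.1e-04 from limma). Pclo had scaled values of 1166, 1142 and 1048 in Het rods and 3723, 3122 and 3624 in Het retina. The values in KO mice were 1142, 1053 and 1097 in rods and 3645, 4017 and 2778 in retina. Rod values of Pclo were again all below the retina values, and nearly level across the 6 rod libraries. Its log2 fold change was -1.64 in Het mice (SE 0.11, adjusted p = 6.5e-06 from limma) and -1.65 in KO mice (SE 0.15, adjusted p = 2.2e-05 from limma). Both genes also serve conventional synapses, and their falls were smaller than the median of -4.85 of the amacrine markers.

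Calcium enters the rod terminal through a channel whose pore is encoded by Cacna1f and whose auxiliary subunit is encoded by Cacna2d4, and the calcium-binding protein of Cabp4 adjusts its opening. Cacna1f had scaled values of 3593, 3836 and 4565 in Het rods and 2797, 3016 and 2139 in Het retina. They were 5242, 4892 and 5158 in KO rods and 2762, 2333 and 2605 in KO retina. Rods were above retina without overlap in both genotypes. Cacna1f was higher in rods, with log2 fold changes of 0.60 in Het mice (SE 0.16, adjusted p = 0.0097 from limma) and 0.99 in KO mice (SE 0.11, adjusted p = 6.0e-05 from limma). Cacna2d4 had scaled values of 10878, 12269 and 12663 in Het rods and 6472, 7159 and 4759 in Het retina. In KO mice they were 14461, 13808 and 15005 in rods and 6622, 6125 and 6007 in retina. The lowest rod library was well above the highest retina library. Its log2 fold changes were 0.98 in Het mice (SE 0.16, adjusted p = 7.5e-04 from limma) and 1.21 in KO mice (SE 0.10, adjusted p = 1.4e-05 from limma). Cabp4 had scaled values of 4525, 5443 and 5106 in Het rods and 2097, 2824 and 1691 in Het retina. The KO values were 5910, 7177 and 5382 in rods and 2173, 1964 and 2302 in retina. Here too the rod values were all above the retina values. Cabp4 was higher by 1.22 on the log2 scale in Het mice (SE 0.18, adjusted p = 4.8e-04 from limma) and by 1.51 in KO mice (SE 0.13, adjusted p = 2.1e-05 from limma).

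Vesicle fusion at ribbons uses the membrane SNARE protein syntaxin 3 (Stx3) and the SNARE regulator complexin 4 (Cplx4). Stx3 had scaled values of 27260, 24037 and 26785 in Het rods and 14202, 12787 and 13647 in Het retina. They were 22404, 24589 and 20550 in KO rods and 12463, 14610 and 10390 in KO retina. Rods and retina did not overlap, and KO retina was the group with the widest spread. Stx3 was higher in rods, with log2 fold changes of 0.94 in Het mice (SE 0.10, adjusted p = 7.0e-05 from limma) and 0.86 in KO mice (SE 0.14, adjusted p = 7.9e-04 from limma). Cplx4 had scaled values of 28947, 27204 and 28383 in Het rods and 8866, 6993 and 8797 in Het retina. In KO mice the values were 24615, 22660 and 24785 in rods and 8380, 8671 and 6483 in retina. Every rod value of Cplx4 was far above every retina value. Its log2 fold change, the largest among the 8 genes higher in rods of Het mice, was 1.79 in Het mice (SE 0.12, adjusted p = 5.5e-06 from limma), close to that of Nrl, and 1.62 in KO mice (SE 0.13, adjusted p = 1.4e-05 from limma).

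Slc17a7 encodes the transporter VGLUT1, which loads glutamate into vesicles. Its scaled values were 42062, 49122 and 50916 in Het rods, against 20325, 27906 and 15706 in Het retina. They were 61235, 70791 and 54247 in KO rods and 20567, 16434 and 22752 in KO retina. All rod values exceeded all retina values. Slc17a7 was higher in rods, with log2 fold changes of 1.19 in Het mice (SE 0.20, adjusted p = 8.6e-04 from limma) and 1.64 in KO mice (SE 0.15, adjusted p = 2.9e-05 from limma).

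Elfn1 encodes an adhesion protein of the rod terminal that binds the glutamate receptor of rod bipolar cells across the cleft. It had scaled values of 1003, 1425 and 1134 in Het rods and 602, 1107 and 392 in Het retina. The values in KO mice were 1980, 2461 and 1893 in rods and 626, 480 and 971 in retina. Het rods and Het retina overlapped through Het retina replicate 2, whereas KO rods were all above KO retina. Among Het libraries of the same replicate number, each rod value was above the retina value, although no pairing by number is stated. The log2 fold change was 0.88 in Het mice (SE 0.34, adjusted p = 0.048 from limma) and 1.66 in KO mice (SE 0.24, adjusted p = 3.5e-04 from limma). The Het call of Elfn1 was lost without Het rod replicate 1, 2 or 3 (adjusted p = 0.071, 0.15 and 0.10) and without Het retina replicate 1 (adjusted p = 0.079). Without Het retina replicate 2, the library that overlaps rods, its log2 fold change was 1.33. The call held in 10 of 19 alternatives, over which the adjusted p ran from 3.2e-06 to 0.28.

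How far rods stand from retina depends on the scaling. With library size in place of TMM, the median of all genes moved by -0.45 in Het and -0.58 in KO mice, and the share of higher genes among those called dropped from 39.2% to 13.6% in Het mice. Directions of the 10 genes held, but in Het mice Ctbp2 (0.14), Cacna1f (0.16), Stx3 (0.50) and Elfn1 (0.43) were no longer called. In KO mice Cacna1f (0.42) and Stx3 (0.29) were no longer called either, which left 8 of the 10. Removing each library's trend with GC content left all 10 genes called in both genotypes.

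**Figure D2:**
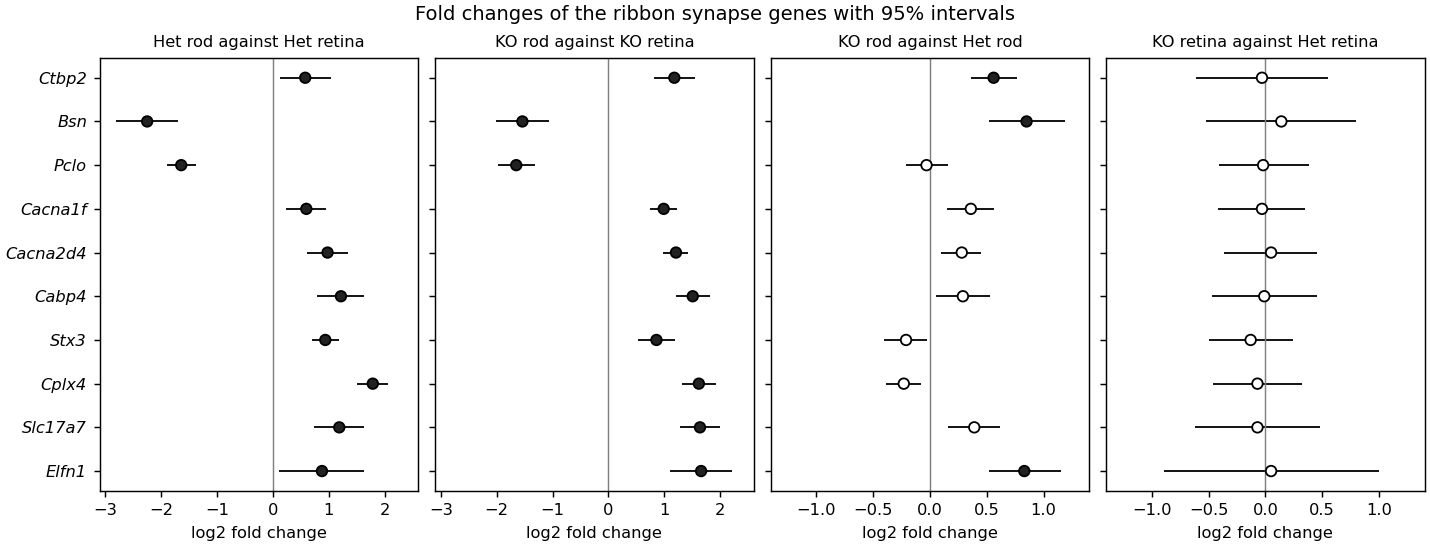
Log2 fold changes (points) of the 10 genes in 4 comparisons, with 95% intervals from limma as horizontal bars. Filled points were called and open points were not, and the KO and Het panels on the right use a narrower scale. In rods, Ctbp2, Bsn and Elfn1 are called for KO against Het, and in retina none is.

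The family relatives of these genes, most of which serve conventional synapses, were a separate list of 24 genes, of which 23 could be tested. No relatives of Bsn and Pclo, the genes lower in rods, were listed. In Het mice 22 were lower in rods, beside 35.6% of all genes tested, and none was higher, beside 23.0%. The median log2 fold change of the list was -4.41, and the count of lower genes was also 22 with library size in place of TMM. In KO mice 22 of 23 were lower too, beside 35.1% of all genes tested, with a median of -4.09. Ctbp1, the paralog of Ctbp2 and a corepressor found in most cells, was the relative not called in Het mice, at -0.09 (SE 0.26). The summed values of the 24 relatives were 2763 to 4277 in rod libraries and 18036 to 24502 in retina libraries, and Cplx3 was the most abundant.

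In each family compared, the ribbon gene made up most of the rod signal. Families were drawn up only around ribbon genes that were higher in rods, so Bsn and Pclo have none. As a share of the scaled values per kilobase of its family, Cacna1f held 97.8% ± 0.207 (SD, n = 3) of 7 pore subunit genes in Het rods and 68.9% ± 2.25 in Het retina. Its relatives Cacna1a, Cacna1b, Cacna1c, Cacna1d and Cacna1e were lower in rods by log2 fold changes of -4.10, -4.45, -4.25, -4.23 and -3.96, and Cacna1s by -2.42. Cacna2d4 held 98.6% ± 0.0986 of 4 auxiliary subunit genes in Het rods against 68.5% ± 5.01 in Het retina. Among the relatives, Cacna2d3 (-5.09) and Cacna2d1 (-4.82) fell further than Cacna2d2 (-2.68). Cabp4 held 98.4% ± 0.0259 of its family in Het rods and 50.7% ± 4.47 in Het retina, where Cabp5 of bipolar cells held 32.6% ± 8.33. Cabp1, Cabp2 and Cabp5 were lower in rods by -4.79, -3.99 and -4.46, and Cabp7 was too low to test.

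The fusion and transport families had the same layout. Stx3 held 98.7% ± 0.108 of 5 syntaxin genes per kilobase in Het rods and 84.4% ± 3.10 in Het retina. The conventional syntaxin gene Stx1a was lower in rods by -4.54, whereas Stx2 and Stx4 (listed as Stx4a) were both at -1.11. Cplx4 held 97.0% ± 0.204 of 4 complexin genes in Het rods and 63.1% ± 8.70 in Het retina. Cplx3, the other ribbon complexin, was lower in rods by -1.80, less than Cplx1 (-4.81) and Cplx2 (-4.42), and still had scaled values averaging 1237 in Het rods. Slc17a7 held 99.9% ± 0.00172 of 3 vesicular glutamate transporter genes in Het rods and 96.4% ± 1.38 in Het retina, and Slc17a6 and Slc17a8 were lower by -4.82 and -4.41. Elfn1 held 98.9% ± 0.218 of the pair with Elfn2 in Het rods and 66.5% ± 2.23 in Het retina, and Elfn2 stood at -4.48. Ctbp2 held 81.8% ± 1.08 of the pair with Ctbp1 in Het rods and 73.8% ± 2.20 in Het retina.

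**Figure D3:**
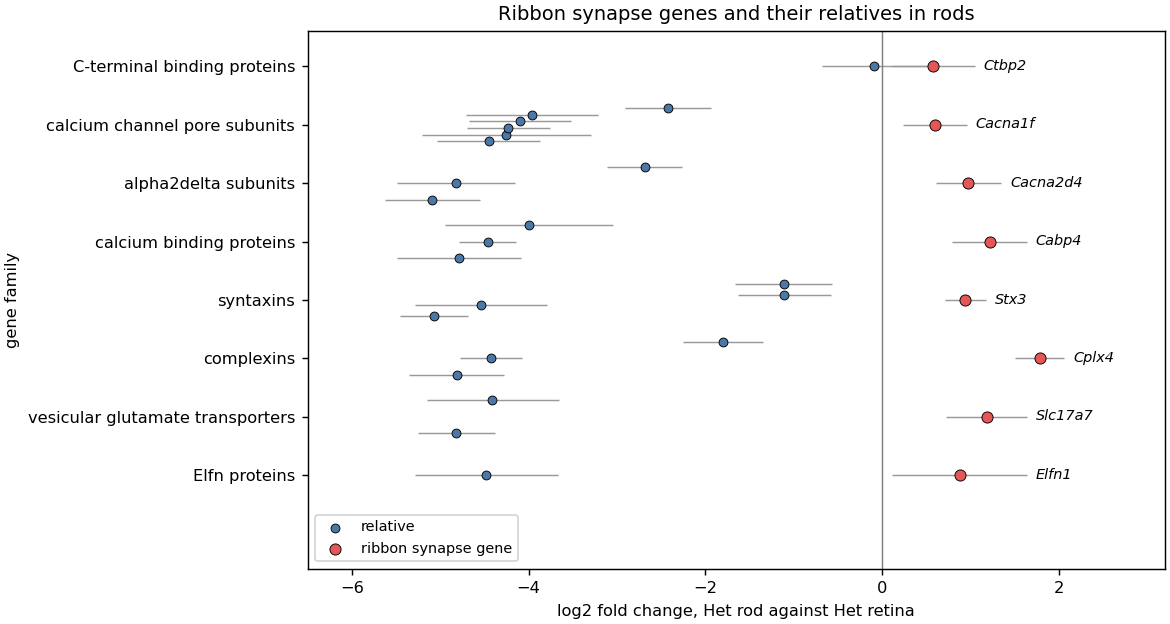
Log2 fold changes in Het rods against Het retina with 95% intervals from limma, for 8 of the ribbon synapse genes (red) and the tested relatives in each gene family (blue). The ribbon gene is positive in each family shown, and every relative except Ctbp1 lies at -1.11 or lower. Bsn (-2.25) and Pclo (-1.64), the ribbon synapse genes lower in rods, were given no family and are not shown.

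Other presynaptic genes split in the same comparison, much as all genes did for the active zone and fusion lists (23.0% higher and 35.6% lower over all genes tested). Of 14 active zone and ribbon scaffold genes, 4 were higher and 5 lower in Het rods (median 0.15). The higher ones were Unc119 (1.44, SE 0.22), Tulp1 (1.32, SE 0.29), Rims2 (1.21, SE 0.12) and Cacnb2 (1.20), the beta subunit of the calcium channel. The lower ones were Rimbp2 (-5.20), Unc13c (-4.63), Rims1 (-4.37), Erc1 (-3.86) and Unc13a (-1.80), so that Rims2 and Rims1, which link channels to vesicles, went opposite ways. Unc13b, which primes vesicles, was at 0.21 (SE 0.14) and not called. Cacnb2 and Unc13a were named after their values were seen, to complete these counts.

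Among 19 genes of vesicles and fusion, 4 were higher and 7 lower in Het rods (median -0.01). Among the higher ones were Sv2b (1.50), Syp (0.86) and Nsf (0.64), which were named after their values were seen. The general release genes Syt1 (0.45), Vamp2 (0.45) and Snap25 (-0.24) were not called. The largest falls were those of Syn2 (-5.28), Rab3c (-4.67), Syn1 (-3.87) and Syt11 (-3.59), and synapsins are known to be absent from ribbon terminals. Of 17 endocytosis genes, 4 were higher, Clta (0.80), Ap2m1 (0.77), Synj1 (0.75) and Snap91 (0.66), and Cltb was lower (-3.45), so that the clathrin light chain genes went opposite ways (median 0.12). Cltc (0.40) and Sh3gl2 (0.26) were not called. These counts depended on scaling, since with library size alone 0 endocytosis genes were higher and 6 were lower, and 2 fusion genes were higher.

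Cleft and calcium genes divided by cell of origin. Of 15 cleft partners, 4 were higher in Het rods and 8 lower (median -1.39), beside 23.0% and 35.6% of all genes tested. The higher ones are known from photoreceptor terminals: Egflam (pikachurin, 1.75, SE 0.15), Lrit2 (1.43, SE 0.10), Lrit1 (1.39, SE 0.10) and Lrit3 (0.84, SE 0.15). Gpr179 (-5.34) and Grm6 (-5.20), both of the bipolar cell dendrite, and the neurexins Nrxn2 (-4.55) and Nrxn3 (-4.53) had the largest falls. Of 11 calcium handling genes, 2 were higher, the rod exchanger Slc24a1 (1.88, SE 0.10) and the calcium pump Atp2b1 (1.19, SE 0.11). The calcium list had 8 lower genes (median -1.37), led by Atp2b2 (-5.46), Slc8a1 (-5.27), Atp2b4 (-4.85) and Slc8a2 (-4.33), while Calm2 (-0.46) was not called. In KO mice the numbers higher and lower were 4 and 5 for the active zone, 5 and 7 for fusion, 5 and 1 for endocytosis, 5 and 8 for the cleft and 2 and 9 for calcium, beside 27.4% higher and 35.1% lower over all genes.

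KO and Het rods were compared to ask what loss of Shp2 does to these genes on rod ribosomes. Bsn, Elfn1 and Ctbp2 rose in KO rods, 3 of 10 genes called higher beside 12.7% of the 13231 genes tested, and none was called lower, beside 1.29%. The number of all genes called lower depended on scaling, with 171 under TMM, 372 under RLE size factors and 584 under library size, which moved the all-gene median by -0.13. None of the 10 was among them. In 7 of the 10 genes the KO and Het values did not overlap, beside 42.7% of all genes tested. The median log2 fold change of the 10 genes was 0.32, beside 0.03 over all genes. Ptpn11 itself had a log2 fold change of -0.21 (SE 0.09, adjusted p = 0.11 from limma) with all KO values below all Het values.

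Bsn had the largest change, from a mean of 215 ± 8.60 in Het rods to 394 ± 79.6 in KO rods (SD, n = 3), and its lowest KO library, replicate 3, was still above every Het library. Its log2 fold change was 0.85 (SE 0.15, adjusted p = 0.0038 from limma). Elfn1 went from 1188 ± 216 to 2111 ± 306 (SD, n = 3), with each KO library above each Het library. The log2 fold change of Elfn1 was 0.83 (SE 0.14, adjusted p = 0.0040 from limma). Ctbp2 went from 3913 ± 342 to 5782 ± 575 (SD, n = 3), again without overlap, and KO rod replicate 2 was the highest library. It rose by 0.56 on the log2 scale (SE 0.09, adjusted p = 0.0030 from limma), and without KO rod replicate 2 by 0.48, under the limit of 0.5. Ctbp2 was also under it with library size (0.43) or RLE size factors (0.48) in place of TMM. The study left genes depleted in rods out of this comparison. When those called lower in Het rods against Het retina were left out here, Bsn and Pclo were among them, and 2 of the 10 genes, Elfn1 and Ctbp2, were called. In a fit of all 12 libraries together, Bsn, Elfn1 and Ctbp2 each had an adjusted p of 0.19. Over their alternatives the adjusted p ran from 9.4e-05 to 0.29 for Bsn, from 2.1e-05 to 0.19 for Elfn1 and from 1.4e-05 to 0.19 for Ctbp2.

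The remaining 7 genes were not called. For 4 of them the adjusted p was below 0.05 with a log2 fold change inside the limit: Slc17a7 at 0.39 (SE 0.10), Cacna1f at 0.36 (SE 0.09), Cacna2d4 at 0.28 (SE 0.08) and Cplx4 at -0.23 (SE 0.07). KO values were all above Het values for Slc17a7, Cacna1f and Cacna2d4, and all below for Cplx4. Cabp4 had 0.29 (SE 0.11), Stx3 had -0.21 (SE 0.08) and Pclo had -0.03 (SE 0.08), each with overlapping genotypes.

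Transcript GC content moved with these changes. Across the genes tested, which are not independent replicates, the Spearman correlation between GC content and log2 fold change was 0.70. The shift of single libraries was -0.81, -0.23 and -0.42 in Het rods, against 0.42, 0.76 and 0.27 in KO rods. Since the genotypes do not overlap in this shift, it cannot be told apart from the effect of the KO. The 10 genes lie along the same trend. GC content was 59.8% for Bsn, 58.5% for Slc17a7, 57.7% for Elfn1 and 55.0% for Ctbp2, but 47.3% for Stx3, 45.4% for Pclo and 44.8% for Cplx4. Genes within 1% of the GC content of Bsn had a median log2 fold change of 0.77, those near Elfn1 0.64 and those near Ctbp2 0.40, and these 3 genes stood at percentiles 61.1, 74.6 and 71.3 of their neighbours. Genes like Cplx4 in GC content had a median of -0.15 and those like Stx3 -0.08. Once the GC trend was subtracted from each library, none of the 10 genes was called. On the log2 scale Ctbp2 then stood at 0.28 (adjusted p = 0.026 from limma), Elfn1 0.33 (adjusted p = 0.016 from limma), and Bsn 0.20 (adjusted p = 0.29 from limma). Among the genes not called before, 3 changed sign with the trend removed: Pclo to 0.22 (SE 0.08), Cplx4 to 0.04 (SE 0.06) and Slc17a7 to -0.18 (SE 0.06).

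**Figure D4:**
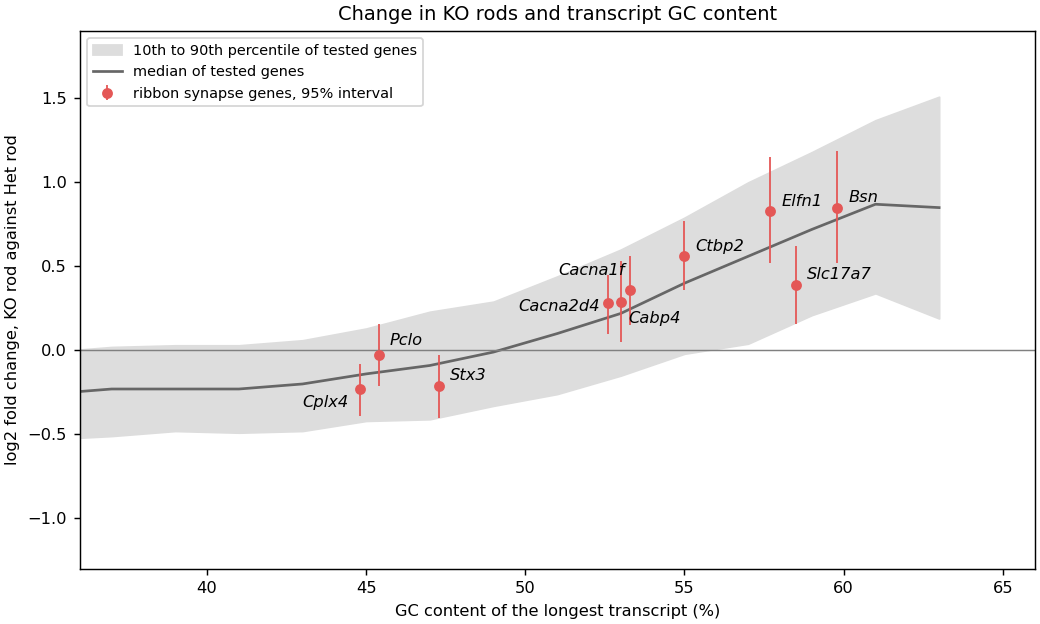
Log2 fold change in KO rods against Het rods (vertical axis) and GC content of the longest protein-coding transcript in percent (horizontal axis). Red points are the 10 genes with 95% intervals from limma, the line is the median of all tested genes in bins of GC content and the grey band spans their 10th to 90th percentile, which holds all 10 points.

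Markers of most other cell types were low in rods of both genotypes, but cone markers less so, and Prkca was level with retina (0.04 in Het and -0.03 in KO mice). Summed cone markers were 4973 to 8174 in rod libraries and 12332 to 14400 in retina libraries. Of the Müller cell markers, 2 of 8 were called higher in KO rods, Apoe by 1.08 and Clu by 0.60, and of the amacrine markers 1 of 7 tested, Slc6a9 by 0.77, beside 12.7% of all genes. Glul (-0.11, SE 0.25) and Vim (-1.04, SE 0.96) had negative values that were not called. The other Müller markers, Rlbp1 (0.21), Slc1a3 (0.19), Aqp4 (0.33) and Dkk3 (0.36), were positive and not called. The median of the Müller list was 0.27, beside 0.03 over all genes tested. Apoe, Clu, Slc6a9, Vim, Slc1a3, Aqp4 and Dkk3 were named after their values were seen. Apoe had scaled values of 38.3, 61.2 and 70.0 in Het rods, against 90.6, 134 and 137 in KO rods, beside a mean of 2647 in Het retina. Summed amacrine markers were 646, 657 and 719 in Het rods, against 1111, 830 and 881 in KO rods, and 13542 to 14999 in retina of both genotypes. Summed Müller markers were 2192, 2817 and 3840 in Het rods, against 2800, 2633 and 3605 in KO rods, with Glul the most abundant. None of the tested rod, cone, bipolar, ganglion and horizontal markers was called. The medians of these lists were 0.10, 0.20, 0.29, 0.12 and 0.06 in this order, beside 0.03 over all genes tested. None of the 6 microglia markers was high enough to test, with 1 to 5 of them at 0 in each rod library. The part of RNA from other cells in the rise of Bsn, which had only 215 in Het rods against 1077 ± 407 in Het retina, was not tested.

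Among related presynaptic genes, all those called in KO rods were higher, as were 90.8% of the calls over all genes (79.0% with RLE size factors and 67.3% with library size in place of TMM). The counts below stand beside 12.7% of all genes tested called higher and 1.29% called lower. Ctbp1 was the relative that rose, from 868 ± 90.8 to 1395 ± 320 (SD, n = 3), by a log2 fold change of 0.66 (SE 0.16, adjusted p = 0.016 from limma), 1 of 18 relatives tested. In the active zone list 2 of 13 rose, Ppfia3 (0.90, SE 0.20) of the liprin scaffold and Tulp1 (0.85, SE 0.16). Of the fusion genes 1 of 19 rose, the vesicle GTPase gene Rab3a (0.62, SE 0.10). Of the endocytosis genes 4 of 17 rose, the adaptor gene Ap2a1 (0.75), the dynamins Dnm2 (0.58) and Dnm1 (0.53), and Bin1 (0.51). Among cleft partners 3 of 15 rose, Nrxn2 (1.09), Lrfn2 (1.07) and Nectin1 (0.66), although Nrxn2 had a mean of only 49.5 in KO rods. Calm3 rose by 0.60 (SE 0.13), 1 of 10 calcium handling genes tested. None of these lists had a gene called lower. Calm2 (-0.37, SE 0.07), Snapin (-0.35, SE 0.09) and Napb (-0.27, SE 0.08) had an adjusted p below 0.05 inside the fold limit with all KO values below the Het values, and Snapin and Napb were named after their values were seen. Their medians were 0.31, 0.04, 0.17, 0.16, 0.29 and -0.01 in this order, beside 0.03 over all genes. With the GC trend removed, 1 cleft gene was called higher and 0 genes of each other list.

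KO and Het retina were compared with the same question for total RNA. None of the 10 genes was called by limma, nor was any of the 16573 genes tested (0%), and 130 of all genes but 0 of the 10 had an unadjusted p below 0.05. Log2 fold changes ran from -0.13 (Stx3, SE 0.16) to 0.14 (Bsn, SE 0.28), and KO and Het values overlapped for each of the 10, beside 3.52% of all genes without overlap. The smallest unadjusted p from limma was 0.43. Intervals were wide, from -0.52 to 0.80 for Bsn and from -0.61 to 0.55 for Ctbp2, both ending just below the changes of these genes in rods, while the interval of Elfn1 took in its change in rods. Elfn1 averaged 700 ± 368 in Het retina against 692 ± 252 in KO retina (SD, n = 3). All pathway lists also had 0 genes called.

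Whether the KO effect differed between rods and retina was tested with all 12 libraries. The limma interaction passed for 0 of the 10 genes and for 0 of 16921 genes in all (0%), with 508 genes at an unadjusted p below 0.05. The differences were 0.78 for Elfn1 (95% interval -0.23 to 1.79), 0.71 for Bsn (-0.03 to 1.46) and 0.59 for Ctbp2 (-0.01 to 1.20). Their unadjusted p from limma was 0.12, 0.058 and 0.055, and the adjusted p was 0.88 for each. The rises in rods are therefore not shown to differ from the retina values.

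For each of the 10 genes, the gene with the most similar profile over the 12 libraries was found among 15660 genes by the root mean square difference of centred log2 values. These were Zc3h4 for Ctbp2 (0.06), Hap1 for Bsn (0.11), Magi3 for Pclo (0.08), Vps11 for Cacna1f (0.08), Dhx8 for Cacna2d4 (0.06) and Paqr4 for Cabp4 (0.07). Lrrc8b was nearest to Stx3 (0.06), Nt5e to Cplx4 (0.06), Alpl to Slc17a7 (0.07) and Gm10359 to Elfn1 (0.05). None of the 10 genes was the nearest to another of them.

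In GENCODE M21 on GRCm38, the genes called in KO rods lie apart, Ctbp2 at chr7:132987563-133124354 on the minus strand, Bsn at chr9:108096022-108190384 on the minus strand and Elfn1 at chr5:139907943-139974722 on the plus strand. Slc17a7 (chr7:45163949-45176142) is on the chromosome of Ctbp2, and Pclo (chr5:14514918-14863459) on that of Elfn1. Cacna1f lies at chrX:7607083-7635196, Cacna2d4 at chr6:119236526-119352407, Cabp4 at chr19:4135423-4144033 and Stx3 at chr19:11775118-11819403. Windows of 250 bases before the annotated starts were read from RefSeq (GRCm38.p6) for 7 of the 10 genes, 8 windows in all, since Ctbp2 has a separate start inside the gene. The letters TAATCC, the core of sites bound by the photoreceptor factor Crx, were searched on both strands. They occurred in 6.25% of the 32851 windows of all genes and in 1 of the 8, that of the internal Ctbp2 start. This start lies next to the GENCODE transcript Ctbp2-214, whose exon 1, of 1731 bases at chr7:133013518-133015248, holds 1687 coding bases, as known for RIBEYE. The match is shown because it sits before the start of the ribbon form, with the letters of the opposite strand in capitals, at chr7:133015351-133015380 on the minus strand.
Ctbp2 internal start: taaggtttcagaGGATTAataatttaggtc
The capitals begin 121 bases before the RefSeq start. A match of letters is no evidence of binding, and the values of the table cannot be assigned to either start.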

How the data were processed

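The signal values of 12 libraries are reads per gene that had been multiplied by 1 factor per library and rounded before the authors deposited them, a step inferred from the values because no label states it. The labels list CASAVA 1.8.2, HISAT2, DESeq2 and edgeR and the build GRCm39 as used by the authors, without their roles. The 10 genes and all lists were chosen with earlier results of these data known.

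Here, factors were estimated from gaps among low whole numbers (largest error 0.0002 on 6 simulated libraries). Values were scaled by TMM (hand-written, trimmed by 30% and 5%), raised by 2 and log2 transformed. limma 3.58.1 in R 4.3.3 (trend and robust options) was fitted to the libraries compared, over genes whose scaled value reached 10 in 3 or more of them, with Benjamini-Hochberg adjustment. Recovery of changes by the fits was tested on simulated data for Het rod against Het retina and KO rod against Het rod. It was also tested for the difference of KO effects, but not for the rest of the 5 comparisons. No sample was left out.

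In Het mice, same-numbered rod and retina libraries were more alike (correlations of 0.48, 0.42 and 0.25 of gene deviations across genes, mean -0.19 for different numbers), whereas in KO mice the pairs had 0.34, -0.01 and 0.19. With the replicate number as a block, 10 of the 10 genes were still called there.

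Lengths, GC content (longest protein-coding transcript) and positions come from GENCODE M21 on GRCm38, matched by Ensembl identifier for 98.4% to 98.8% of tested genes. Named genes are the 10; Ptpn11; for each list the 4 with the highest mean, the 4 largest calls in Het rod against Het retina and in KO rod against Het rod; all relatives; the most abundant and the leading markers; and nearest profiles. Alternatives were other scalings, pseudocounts, filters, a replicate block, GC trend removal, fits without trend and robust options or over all libraries, removal of rod-depleted genes, no fold limit and leaving out each library. Python 3.11.15, NumPy 2.4.6 and matplotlib 3.10.9 were used for factors and figures.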

Additional observations from a re-analysis of the deposited data

How the results depend on the processing

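Of the alternatives tried for the 10 genes, 173 of 190 kept the result in Het rod against Het retina and 188 of 190 in KO rod against KO retina. In Het mice Elfn1 kept its call in 10 of 19 and Ctbp2 in 13 of 19. In KO rod against Het rod the called genes kept theirs in 14 of 20 (Ctbp2), 16 of 19 (Bsn) and 17 of 20 (Elfn1). No called gene changed direction. With library size only, 6 of the 10 genes were called in Het rod against Het retina, and with the filter at 10 in every library 5979 of all genes, since fewer genes were tested. In KO rod against Het rod, no fold limit gave 7 of the 10 and 3128 of all genes, by its construction. A fit of all 12 libraries gave 0 of the 10 and 0 of all, and the cause was not tested. Removal of the GC trend gave 0 of the 10 and 507 of all, and with the replicate block 0 and 569; the block alone gave 3 and 1974. In KO retina against Het retina, limma without trend and robust options gave 1 of all genes, and the cause was not tested.

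Leaving out each library in turn, the number of the 10 genes called was 8 to 10 in Het rod against Het retina, 10 to 10 in KO rod against KO retina, 2 to 3 in KO rod against Het rod, and 0 to 0 in KO retina against Het retina and in the difference of KO effects. Of all genes the range was 6574 to 8612, 7036 to 9388, 1162 to 2095 (1162 without Het rod replicate 1), 0 to 1 (1 without Het retina replicate 1 or KO retina replicate 1) and 0 to 1 (1 without Het rod replicate 3), in the same order. Fewer samples enter these fits. Same-numbered Het and KO rod libraries had correlations of 0.17, 0.02 and 0.03, and retina libraries of 0.42, -0.60 and -0.15. With deposited values and no further scaling, 19 of 40 group means moved by at least 1 SD.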
